A study of Mus musculus with 21 samples.

Results

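The genes of the TREM2 pathway and of the TAM receptor kinases were followed across 21 RNA-seq libraries of myeloid cells sorted from the mouse brain. They comprise 3 receptors (Trem2, Mertk and Axl), 1 signaling adaptor (Tyrobp) and 2 ligands (Gas6 and Pros1). These 6 genes were chosen by symbol from the 45706 gene identifiers measured, and all 6 passed the filter on low counts, as did 23815 identifiers in all.

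TREM2 is a surface receptor of microglia and macrophages for lipids, lipoproteins and dying cells. It has no signaling tail of its own and depends on TYROBP (also called DAP12), an adaptor that recruits the kinase SYK. MERTK and AXL, with TYRO3, form the TAM family of receptor tyrosine kinases, which recognize phosphatidylserine on dying cells through bridging proteins, GAS6 and protein S (the product of Pros1, also a plasma anticoagulant). Both bridging proteins need vitamin K dependent carboxylation to bind phosphatidylserine. In the brain, MERTK is typical of homeostatic microglia, whereas AXL is typical of microglia in inflamed or diseased tissue.

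All groups were adult male mice on the C57BL/6 background, wild-type (WT) or knock-in for Fgg γ390–396A, and each library pooled the cells of 2 brains. Fgg γ390–396A mice make a fibrinogen that still clots but has lost the motif bound by the CD11b/CD18 integrin. Brains were taken 1 d or 7 d after controlled cortical impact (CCI), an open-head model of traumatic brain injury, or after sham surgery, in which the skull was opened without an impact. The study cut out a block of tissue across the lesion site before sorting, so the cells do not represent the whole brain. Microglia were sorted as CD45lowCD11b+ cells (Mg) and infiltrating myeloid cells as CD45hiCD11b+ cells (Mp), which gave 7 groups of 3 libraries, namely Sham_Mg, WT_1d_Mg, Fgg_1d_Mg, WT_7d_Mg, Fgg_7d_Mg, WT_1d_Mp and Fgg_1d_Mp. The mutation is in the germline and so in every cell. Sham mice were taken as WT, although the sample titles name no genotype for them. Infiltrating cells were profiled at 1 d only, with no sham group of their own.

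Total counts per library ranged from 18896957 to 51875767. Ribosomal RNA genes held 43% to 58.6% of these counts. The share was 43.6% to 47.9% in sham and 50.7% to 58.6% in WT_1d_Mg libraries. Levels are given in CPM, a gene's counts relative to the library's total counts multiplied by its TMM factor. This factor is edgeR's normalization between libraries and ranged from 0.735 to 1.546, so CPM is not the plain share of a library's counts. The authors had divided gene length out of the counts, so levels of different genes can be set side by side. The summed level of 10 microglia markers was 12263 to 13734 CPM in sham microglia and 391 to 1101 CPM in infiltrating cells, and the 8 monocyte markers summed to 13.1 to 157 CPM in the microglia libraries against 2683 to 3766 CPM in infiltrating cells, which matches the sort labels. The infiltrating libraries also carried 2491 to 12937 CPM of 9 neutrophil markers, against 1.91 to 773 CPM in microglia libraries. Fgg itself had 0 counts in every WT and sham library and 33 counts in all over the 9 libraries labelled Fgg. In sorted pools, fewer cells that make a transcript cannot be told apart from less transcript per cell.

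Promoter sequences of 5 of the 6 genes were matched in RefSeq on GRCm38.p6. The 250 bases before the start are shown for Mertk and Axl, the TAM receptors whose ratio changed with injury, and for Trem2. Capitals mark 2 motifs searched on both strands, GAGGAA, the core bound by PU.1, the myeloid lineage factor, and GGGCGG, the GC box, which read TTCCTC and CCGCCC where they lie on the other strand. Each sequence reads 5′ to 3′ along the strand of the gene.
Mertk, chr2:128698665-128698914, plus strand: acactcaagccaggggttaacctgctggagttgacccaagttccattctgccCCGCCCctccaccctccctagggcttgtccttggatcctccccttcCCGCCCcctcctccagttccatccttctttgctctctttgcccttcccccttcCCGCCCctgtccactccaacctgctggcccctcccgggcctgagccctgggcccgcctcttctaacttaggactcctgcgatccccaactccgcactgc
Axl, chr7:25788734-25788983, minus strand: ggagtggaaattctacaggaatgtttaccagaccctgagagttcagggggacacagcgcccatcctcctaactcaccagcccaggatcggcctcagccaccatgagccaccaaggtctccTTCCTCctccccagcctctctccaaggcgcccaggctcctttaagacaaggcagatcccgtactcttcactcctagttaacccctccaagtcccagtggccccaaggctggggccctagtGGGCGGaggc
Trem2, chr17:48346151-48346400, plus strand: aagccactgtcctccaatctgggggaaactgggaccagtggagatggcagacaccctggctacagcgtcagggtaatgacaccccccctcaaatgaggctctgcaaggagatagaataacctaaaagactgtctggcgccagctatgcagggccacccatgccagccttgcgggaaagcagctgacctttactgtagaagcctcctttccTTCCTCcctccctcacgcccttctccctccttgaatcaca

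The Mertk window held 3 GC boxes and no GAGGAA, whereas Axl held 1 of each and Trem2 held 1 GAGGAA and no GC box. The windows of Gas6 and Pros1 held 4 and 5 GC boxes and no GAGGAA. Of the 32851 promoter windows of this length, 23.3% held GAGGAA and 32.7% held GGGCGG, so either match is common. TGAGTCA, an AP-1 site, and CACGTG, an E-box, were in 4.46% and 6.02% of windows and in none of the 5.

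A gene was counted as changed by injury, time or cell population where it moved by more than 1 on the log2 scale in either direction with an adjusted p under 0.05 in edgeR's quasi-likelihood test, adjusted over all genes tested. At 1 d after CCI, 1 of the 6 genes passed in WT microglia, where 12.3% of all genes tested did, and 1 of 6 in Fgg γ390–396A microglia, where 6.64% did, so that the share of members at 1 d was near the background. At 7 d, 1 of 6 passed against sham in either genotype, beside 2.02% of genes in WT and 0.663% in Fgg γ390–396A microglia. Between 7 d and 1 d, 2 of 6 passed in either genotype, beside 7.06% and 3.54% of genes. Between infiltrating cells and microglia at 1 d, 5 of 6 passed in either genotype, beside 11.9% of genes in WT and 16.7% in Fgg γ390–396A mice. In the last comparison the median of all genes lay at -0.13 on the log2 scale, and at 0 in the other 7. The comparisons with sham share the same 3 control libraries, and each library at 1 d and 7 d enters more than 1 comparison.

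**Figure D1:**
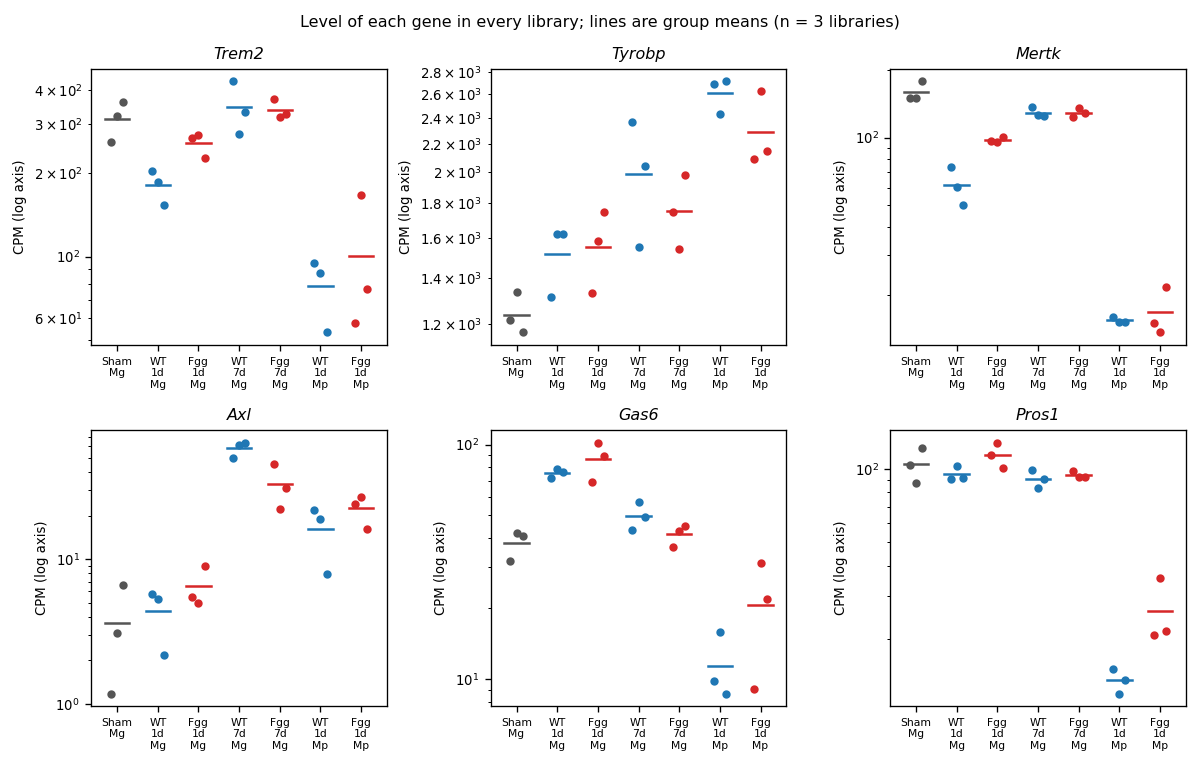
Level of the 6 genes in each of the 21 libraries, in CPM on a log axis, with 1 dot per library and a line at the mean of each group of 3 (grey, sham; blue, WT; red, Fgg γ390–396A). Mertk was lowest in infiltrating cells (15.4 and 16.7 CPM on average) and highest in sham microglia (159 CPM), whereas Axl was highest in microglia at 7 d (58.1 and 32.8 CPM).

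Trem2 (ENSMUSG00000023992, GRCm38 chromosome 17, 48346401 to 48354147), the lipid and dying-cell receptor, was lower in infiltrating cells than in microglia, and its microglial level did not pass the threshold at any time after CCI. The 3 sham libraries had 259, 323 and 360 CPM. At 1 d the WT libraries had 203, 186 and 153 CPM and the Fgg γ390–396A libraries 267, 275 and 227 CPM. At 7 d they had 429, 276 and 332 CPM in WT and 369, 319 and 327 CPM in Fgg γ390–396A mice. All 3 WT libraries at 1 d thus lay below all sham libraries, whereas the other microglia groups overlapped with sham. The difference of WT microglia from sham at 1 d was -0.80 on the log2 scale (95% interval -1.42 to -0.17, adjusted p = 0.077), and that between 7 d and 1 d was 0.93 (0.31 to 1.56, adjusted p = 0.051), just short of both limits of the test. In Fgg γ390–396A microglia the same values were -0.29 (adjusted p = 0.64) and 0.40 (adjusted p = 0.54). DESeq2 gave a log2 fold change of 1.02 between 7 d and 1 d in WT mice (adjusted p = 0.0046).

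Infiltrating cells had Trem2 levels of 95.2, 87.2 and 53.3 CPM in WT and 57.6, 167 and 76.6 CPM in Fgg γ390–396A mice. Every infiltrating library lay below every microglia library of its genotype. Trem2 was lower by 1.20 on the log2 scale in WT mice (log2 fold change -1.20, SE 0.30, adjusted p = 0.0083) and by 1.35 in Fgg γ390–396A mice (-1.35, SE 0.30, adjusted p = 0.0029). The same libraries differed in all 10 microglia markers, which were lower in infiltrating cells, and the part of cell identity in the Trem2 difference was not tested. The WT value was -0.99 (adjusted p = 0.054) without WT_1d_Mp replicate 3. The Fgg γ390–396A value was -0.97 (adjusted p = 0.026) without Fgg_1d_Mp replicate 1, and in a fit of the compared groups alone it was -1.23 (adjusted p = 0.068).

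Tyrobp (ENSMUSG00000030579, chromosome 7, 30413760 to 30417585), the adaptor of TREM2 and of many other myeloid receptors, was the most abundant of the 6 transcripts in every group and did not follow Trem2. Sham microglia had 1215, 1334 and 1166 CPM, and WT microglia had 1312, 1623 and 1624 CPM at 1 d and 2370, 1556 and 2045 CPM at 7 d. In Fgg γ390–396A microglia it was at 1333, 1584 and 1749 CPM at 1 d and at 1746, 1543 and 1978 CPM at 7 d. All libraries at 7 d of either genotype lay above all sham libraries. The log2 fold change over sham at 7 d was 0.68 in WT mice (95% interval 0.31 to 1.06, adjusted p = 0.045), under the bar on size, and 0.50 in Fgg γ390–396A mice (0.13 to 0.88, adjusted p = 0.35). Infiltrating cells held 2693, 2431 and 2715 CPM in WT and 2087, 2630 and 2146 CPM in Fgg γ390–396A mice, above all microglia libraries of their genotype at 1 d. That difference was 0.78 in WT mice (SE 0.18, adjusted p = 0.0046) and 0.56 in Fgg γ390–396A mice (SE 0.18, adjusted p = 0.031), again under the bar on size. The adaptor and its receptor thus differed in opposite directions between the cell populations, with Trem2 alone past the threshold.

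Mertk (ENSMUSG00000014361, chromosome 2, 128698956 to 128802894), the TAM receptor of homeostatic microglia, fell 1 d after CCI in WT microglia and rose again by 7 d. Sham libraries had 150, 150 and 178 CPM, and WT libraries at 1 d had 74.1, 60.6 and 50 CPM. The groups did not overlap, and the log2 fold change was -1.37 (SE 0.17, 0.387-fold, adjusted p = 1.1e-05). At 7 d the WT libraries had 137, 126 and 125 CPM, a rise of 1.07 on the log2 scale from 1 d (SE 0.17, 2.1-fold, adjusted p = 0.00029). They still lay below every sham library, by -0.30 on average (95% interval -0.65 to 0.05, adjusted p = 0.50). The rise from 1 d to 7 d was 0.89 (adjusted p = 0.006) without WT_1d_Mg replicate 3 and 0.97 (adjusted p = 0.0033) without WT_7d_Mg replicate 1, both under the bar on size.

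In Fgg γ390–396A microglia Mertk was at 96.4, 95.9 and 101 CPM at 1 d, below every sham library and above every WT library at 1 d. Its log2 fold change from sham was -0.70 (SE 0.17, 0.614-fold, adjusted p = 0.0084), which passed on p and not on size. At 7 d it was at 123, 135 and 129 CPM, a difference from 1 d of 0.40 (95% interval 0.05 to 0.75, adjusted p = 0.21). The microglia markers moved in the same order: 7 of 10 were lower in WT microglia at 1 d than in sham, with a median log2 fold change of -1.76, and 5 of 10 in Fgg γ390–396A microglia, with a median of -0.92. Their summed level was 3301 to 5322 CPM in WT and 6090 to 7805 CPM in Fgg γ390–396A microglia at 1 d, and its part in the Mertk levels was not tested.

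Infiltrating cells had little Mertk, with 15.9, 15.2 and 15.1 CPM in WT and 15, 13.6 and 21.6 CPM in Fgg γ390–396A mice. These libraries lay below all microglia libraries of any group. The log2 fold change from microglia was -2 in WT mice (SE 0.17, adjusted p = 3e-07) and -2.55 in Fgg γ390–396A mice (SE 0.18, adjusted p = 2.7e-08). Over all genes tested this ranked 35th by p in WT mice and 8th in Fgg γ390–396A mice. Across groups the order was sham, 7 d, Fgg_1d_Mg, WT_1d_Mg and infiltrating cells, and only the genotypes at 7 d and the genotypes of infiltrating cells overlapped with their neighbor.

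Axl (ENSMUSG00000002602, chromosome 7, minus strand, 25757273 to 25788705), the TAM receptor of inflamed tissue, rose late in microglia of either genotype. Sham libraries had 1.18, 3.11 and 6.66 CPM, and at 1 d the values were 5.73, 5.32 and 2.19 CPM in WT and 5.49, 4.96 and 9 CPM in Fgg γ390–396A mice. These 3 groups overlapped, with a log2 fold change over sham of 0.26 (95% interval -0.76 to 1.28, adjusted p = 0.81) in WT mice and 0.81 (-0.20 to 1.82, adjusted p = 0.36) in Fgg γ390–396A mice. At 7 d Axl was at 49.6, 61.0 and 63.8 CPM in WT and at 45.4, 22.1 and 30.9 CPM in Fgg γ390–396A mice, above every sham and 1 d microglia library. The rise over sham was 3.98 on the log2 scale in WT mice (SE 0.53, 15.8-fold, adjusted p = 0.00023) and 3.16 in Fgg γ390–396A mice (SE 0.51, 8.91-fold, adjusted p = 0.0034). From 1 d to 7 d it was 3.72 (SE 0.52, adjusted p = 0.00011) and 2.35 (SE 0.49, adjusted p = 0.0061). The spread among the 3 sham libraries was wide, and their summed level of 6 markers of border-associated macrophages ranged from 4.56 to 228 CPM, against 87.5 to 233 CPM at 7 d. Without Sham_Mg replicate 3, the sham library with the most Axl, the rise over sham was 4.77 in WT mice (adjusted p = 0.00013) and 3.94 in Fgg γ390–396A mice (adjusted p = 0.0013). The Fgg γ390–396A value over sham was 3.15 (adjusted p = 0.067) in a fit of the compared groups alone, and that from 1 d to 7 d was 2.19 (adjusted p = 0.051) without Fgg_1d_Mg replicate 2.

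Infiltrating cells at 1 d already had more Axl than microglia of the same day, with 21.8, 19.0 and 7.93 CPM in WT and 24.1, 27.0 and 16.2 CPM in Fgg γ390–396A mice. It was the 1 gene of the 6 that was past the threshold and higher in infiltrating cells, by 1.88 on the log2 scale in WT mice (SE 0.49, adjusted p = 0.011) and by 1.80 in Fgg γ390–396A mice (SE 0.48, adjusted p = 0.011). The WT value was 1.60 (adjusted p = 0.055) without WT_1d_Mg replicate 3 and 1.61 (adjusted p = 0.052) without WT_1d_Mp replicate 1. The Fgg γ390–396A value was 1.69 (adjusted p = 0.051) without Fgg_1d_Mg replicate 1 and 1.64 (adjusted p = 0.052) without Fgg_1d_Mg replicate 2. Markers of border-associated macrophages summed to 1165 to 2027 CPM in infiltrating cells against 103 to 226 CPM in microglia at 1 d, and their part in the Axl level was not tested. Tyro3, the other TAM receptor, had 0 to 9 counts per library, beside a level of 3 counts of 0.0448 to 0.158 CPM. Its highest values were 9 counts (0.362 CPM) in Fgg_1d_Mg replicate 3 and 6 counts (0.168 CPM) in Fgg_1d_Mp replicate 3, and most libraries lay at or below 3 counts, too few to compare groups.

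**Figure D2:**
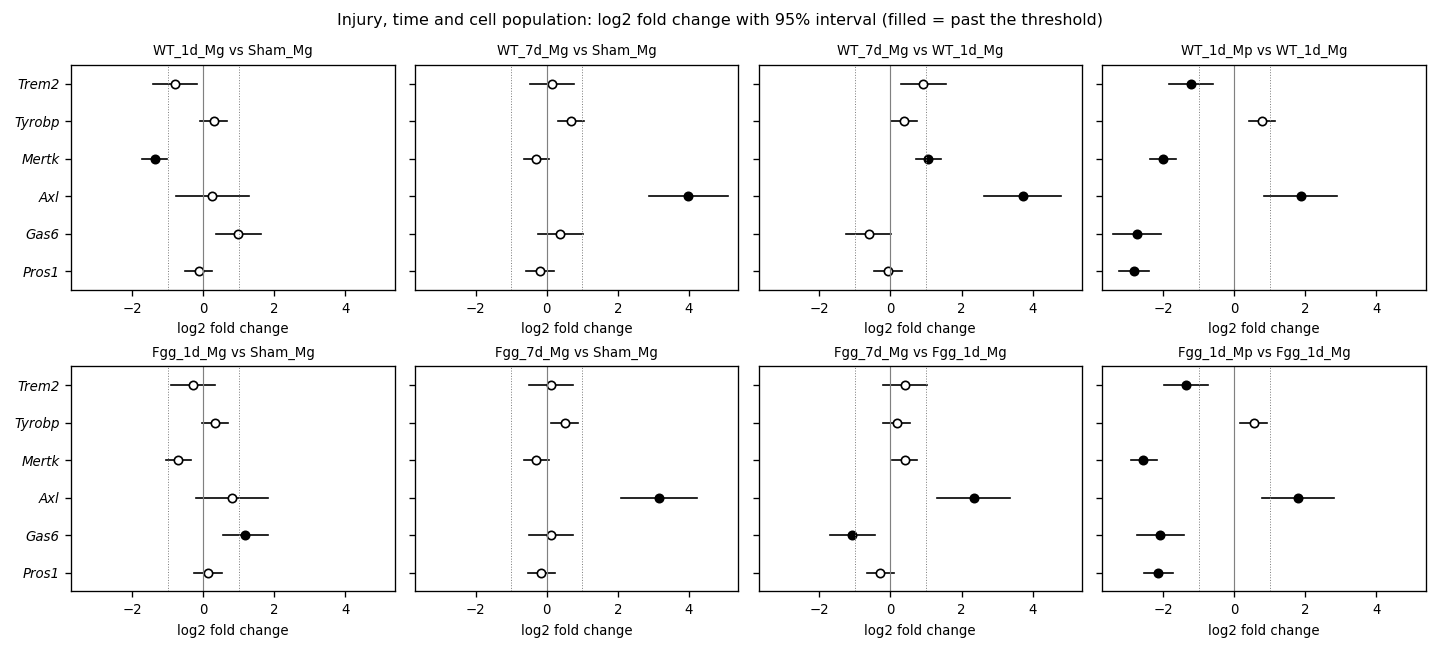
Log2 fold change of each gene (horizontal axis) for injury, time and cell population, WT in the upper row and Fgg γ390–396A in the lower row, with 95% intervals from edgeR and dotted lines at -1 and 1. Filled dots are past the threshold, such as Axl at 7 d against sham (3.98 and 3.16) and Pros1 in infiltrating cells against microglia (-2.81 and -2.13).

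The balance between the TAM receptors was compared as the Mertk to Axl ratio within each library, with genotypes pooled and two-sided exact permutation tests. The log2 ratio was 6.97, 5.58 and 4.74 in the sham libraries, so that Mertk counts were 26.6 to 125 times the Axl counts. It ranged from 3.48 to 4.5 in the 6 microglia libraries at 1 d, from 0.97 to 2.62 in the 6 at 7 d, and from -0.98 to 0.92 in the 6 of infiltrating cells. No library of one of these 4 sets lay within the range of another. The mean fell by 1.83 from sham to 1 d (exact p = 0.012, adjusted p = 0.016), by 4.16 from sham to 7 d (exact p = 0.012, adjusted p = 0.016) and by 2.33 from 1 d to 7 d (exact p = 0.0022, adjusted p = 0.0087). In infiltrating cells it was -0.19 ± 0.71 (SD, n = 6) against 3.93 ± 0.43 in microglia at 1 d (exact p = 0.0022, adjusted p = 0.0087). These p are the smallest that 3 against 6 and 6 against 6 libraries allow, and the adjustment was over the 8 ratio tests made. Without Sham_Mg replicate 1 the difference of 1 d from sham was -1.23 and that of 7 d from sham was -3.56. Sham mice were taken as WT, so genotypes are pooled on one side of the sham comparisons only.

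**Figure D3:**
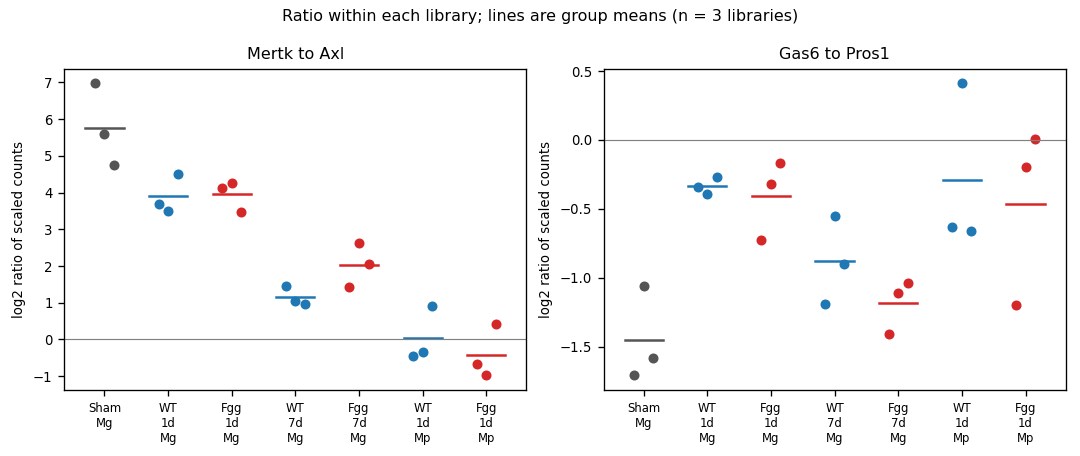
Log2 ratio of Mertk to Axl (left) and of Gas6 to Pros1 (right) within each library, with 1 dot per library, lines at group means and 0 marking equal length-scaled counts. Mertk to Axl declined from 5.76 on average in sham microglia to 1.60 at 7 d and -0.19 in infiltrating cells, and Gas6 to Pros1 was highest in microglia at 1 d (-0.37) and in infiltrating cells (-0.38).

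Gas6 (ENSMUSG00000031451, chromosome 8, minus strand, 13465374 to 13494490), the bridging ligand that binds all TAM receptors, was higher at 1 d than at any other time in microglia. Sham libraries had 31.7, 42.1 and 40.7 CPM. At 1 d WT libraries had 72.0, 79.0 and 76.2 CPM and Fgg γ390–396A libraries 69.2, 102 and 89.8 CPM. All 6 lay above all sham libraries and above all libraries at 7 d, which had 43.2, 56.7 and 48.9 CPM in WT and 36.7, 42.8 and 44.9 CPM in Fgg γ390–396A mice. The rise over sham passed in Fgg γ390–396A microglia (log2 fold change 1.19, SE 0.30, 2.28-fold, adjusted p = 0.014). In WT microglia the value was 0.99 (SE 0.30, 1.98-fold, adjusted p = 0.029), just under the bar on size, which it passed with the replicate block (1.01, adjusted p = 0.0061) and without WT_1d_Mg replicate 1 (1.02, adjusted p = 0.044). From 1 d to 7 d Gas6 fell by 1.07 in Fgg γ390–396A mice (log2 fold change -1.07, SE 0.30, adjusted p = 0.043), and the value in WT mice was -0.61 (95% interval -1.24 to 0.02, adjusted p = 0.24).

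The Gas6 calls in Fgg γ390–396A microglia rested on single libraries. The value over sham was 1.06 (adjusted p = 0.074) without Fgg_1d_Mg replicate 2 and 1.07 (adjusted p = 0.075) without Sham_Mg replicate 1. The value from 1 d to 7 d was -0.94 (adjusted p = 0.20) without Fgg_1d_Mg replicate 2, -1.05 (adjusted p = 0.12) without Fgg_1d_Mg replicate 3, -0.99 (adjusted p = 0.17) without Fgg_7d_Mg replicate 1, -1.09 (adjusted p = 0.12) without Fgg_7d_Mg replicate 2 and -1.13 (adjusted p = 0.10) without Fgg_7d_Mg replicate 3. DESeq2 gave -0.96 (adjusted p = 0.018). Gas6 shares 34 exonic bases with Tmem255b on the opposite strand, whose reads cannot be told apart from those of Gas6 there unless strand was used.

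Pros1 (ENSMUSG00000022912, chromosome 16, 62854307 to 62929346), the gene of protein S, stayed within a narrow range in microglia. Sham libraries had 104, 87.6 and 122 CPM, and the 12 microglia libraries after CCI lay between 83.0 and 128 CPM. No comparison of microglia by time passed, with log2 fold changes from -0.28 to 0.13 and intervals that lay within -0.67 and 0.52. Pros1 was thus the ligand with the higher level in sham microglia, at 105 ± 17.2 CPM (SD, n = 3) against 38.2 ± 5.64 CPM for Gas6. At 1 d the gap was smaller, since the log2 ratio of Gas6 to Pros1 was -1.45 ± 0.35 in sham microglia (n = 3) and -0.37 ± 0.19 at 1 d (n = 6), a difference of 1.08 (exact permutation p = 0.012, adjusted p = 0.016). It was -1.03 ± 0.29 at 7 d (n = 6), lower than at 1 d by 0.66 (difference -0.66, exact permutation p = 0.0043, adjusted p = 0.012). The difference of 7 d from sham was 0.42 (exact permutation p = 0.11, adjusted p = 0.12).

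Both ligands were lower in infiltrating cells, by about the same factor. Gas6 was at 9.75, 15.8 and 8.65 CPM in WT and at 9.08, 31.2 and 21.9 CPM in Fgg γ390–396A mice. Pros1 was at 15.1, 12 and 13.7 CPM in WT and at 20.9, 35.7 and 21.7 CPM in Fgg γ390–396A mice. All of these lay below all microglia libraries. The log2 fold change from microglia was -2.73 for Gas6 (SE 0.32, adjusted p = 6.9e-06) and -2.81 for Pros1 (SE 0.20, adjusted p = 3.7e-08) in WT mice. In Fgg γ390–396A mice it was -2.07 for Gas6 (SE 0.31, adjusted p = 8.3e-05) and -2.13 for Pros1 (SE 0.19, adjusted p = 3e-07). The log2 ratio of Gas6 to Pros1 was -0.38 ± 0.57 in infiltrating cells (n = 6) and differed from that of microglia at 1 d by -0.01 (exact permutation p = 0.97).

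The genotypes were compared within each population and day, with the same bar of 1 on the log2 scale and an adjusted p under 0.1. None of the 6 genes passed in microglia at 1 d, where 0.0546% of genes tested did (13 genes), in microglia at 7 d, where 0.0378% did (9 genes), or in infiltrating cells, where 0.453% did (108 genes). None passed for the mean genotype effect of these 3 settings, for which 0.143% of genes did. Unadjusted p under 0.05 were reached by 1, 0 and 2 of the 6 genes in the 3 settings in edgeR, and DESeq2 also called 0 of the 6 in each. At 1 d the largest difference in microglia was that of Mertk, at 97.7 ± 2.71 CPM in Fgg γ390–396A and 61.6 ± 12.1 CPM in WT mice (SD, n = 3). It amounted to 0.67 on the log2 scale (95% interval 0.32 to 1.02, adjusted p = 0.47) and to 0.66 (adjusted p = 0.44) with the replicate block, since libraries of the same number deviated together in this comparison. The study named Mertk, from these same libraries, among homeostatic markers that were increased in Fgg γ390–396A microglia at 1 d. Its limits for that comparison were the same, and Mertk did not pass them here. Trem2 did not overlap between genotypes either, with a difference of 0.50 (-0.12 to 1.12, adjusted p = 0.89). How many of all genes separate fully between genotypes is not given here, so this and the separations below describe the libraries only. The summed microglia markers were also higher in all 3 Fgg γ390–396A libraries, as given above.

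In microglia at 7 d the Axl level of every Fgg γ390–396A library lay below every WT library, by -0.83 on the log2 scale on average (95% interval -1.80 to 0.15, adjusted p = 1). The intervals of the other 5 genes at 7 d lay within -0.89 and 0.59. In infiltrating cells Pros1 was higher in each Fgg γ390–396A library than in each WT library, at 26.1 ± 8.34 against 13.6 ± 1.59 CPM. The log2 fold change of 0.94 (SE 0.19, 1.92-fold, adjusted p = 0.046) passed on p and lay just under the bar on size. It was 1.13 (adjusted p = 0.0084) without Fgg_1d_Mp replicate 1, 1.06 (adjusted p = 0.014) without Fgg_1d_Mp replicate 3 and 1.02 (adjusted p = 0.071) without WT_1d_Mp replicate 1. Gas6 was at 20.7 ± 11.1 against 11.4 ± 3.88 CPM (0.87, SE 0.31, adjusted p = 0.29) and at 1.27 (adjusted p = 0.014) without Fgg_1d_Mp replicate 1. Only refits past the threshold are given here. Fgg_1d_Mp replicate 2 had the highest level of both ligands, with Pros1 at 35.7 CPM against 20.9 and 21.7 CPM in replicates 1 and 3. Gas6 was at 31.2 CPM there, against 9.08 and 21.9 CPM. Microglia markers summed to 662 to 1101 CPM in these Fgg γ390–396A libraries and to 391 to 733 CPM in the WT ones, and neutrophil markers to 2491 to 5654 and 3450 to 12937 CPM. Their part in the ligand levels was not tested.

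**Figure D4:**
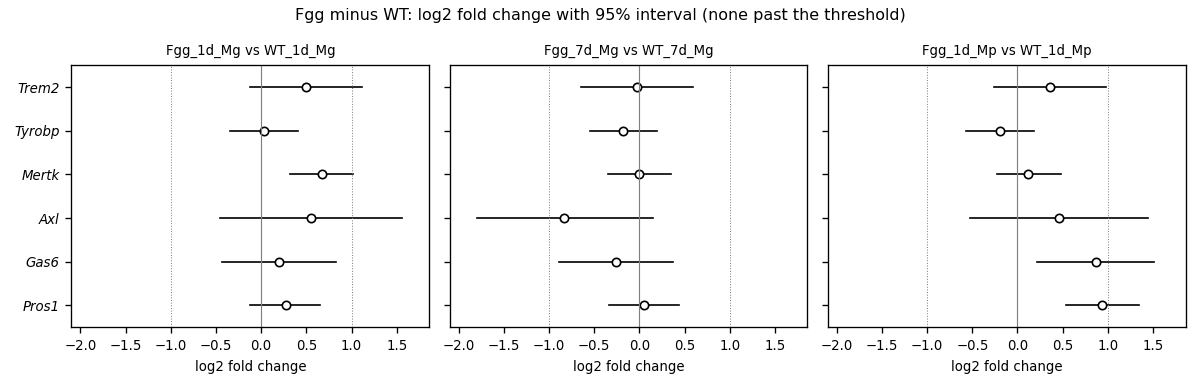
Log2 fold change of each gene between Fgg γ390–396A and WT mice (horizontal axis) in microglia at 1 d and 7 d and in infiltrating cells at 1 d, with 95% intervals from edgeR and dotted lines at -1 and 1. No dot is filled, since none is past the threshold, and the intervals of Mertk at 1 d (0.32 to 1.02) and of Gas6 and Pros1 in infiltrating cells (from 0.22 and 0.54) exclude 0 before adjustment.

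Whether the genotype effect differed between days or populations was tested as an interaction. No member passed at an adjusted p under 0.1 between 7 d and 1 d, where 0% of all genes did in edgeR (0 genes, with 653 at an unadjusted p under 0.05 and 33 called by DESeq2). The difference in Mertk genotype effect was -0.67 (95% interval -1.16 to -0.18, adjusted p = 1) and that in Axl was -1.37 (-2.78 to 0.03, adjusted p = 1). Between infiltrating cells and microglia at 1 d no member passed either, where 0.0462% of genes did (11 genes). Pros1 had a difference in genotype effect of 0.68 (0.12 to 1.23, adjusted p = 0.54).

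The TREM family and receptors that signal through TYROBP formed a list of 18 genes, of which 17 were tested, and most of them were higher in infiltrating cells. The list also holds Hcst, a partner adaptor of TYROBP, and TREM-like genes such as Treml1 and Treml2 that are not known to use TYROBP. In WT mice 12 were higher and 1 lower in infiltrating cells than in microglia (76.5%, beside 11.9% of all genes), with a list median of 2.68 on the log2 scale against 0 for all genes. The split in Fgg γ390–396A mice was 10 higher and 2 lower (70.6%, beside 16.7%), with a median of 3.78 against -0.13. Clec5a, a lectin that signals through TYROBP, was at 94.4 CPM in WT infiltrating cells and 39.2 CPM in WT microglia at 1 d (log2 fold change 1.27, SE 0.17, adjusted p = 3.8e-05), and Cd300c2 at 136 and 62.1 CPM (1.13, SE 0.16, adjusted p = 4.2e-05). Clec5a was at 60 and 47.3 CPM and Cd300c2 at 112 and 79.6 CPM in Fgg γ390–396A mice. The difference in genotype effect between the populations did not pass for Clec5a (-0.92, SE 0.24, adjusted p = 0.45) or Cd300c2 (-0.65, SE 0.22, adjusted p = 0.51). In Fgg γ390–396A mice Sirpb1c was at 141 and 2.04 CPM (6.04, SE 0.84, adjusted p = 3.2e-05), although its reads may be shared with the close paralogs Sirpb1a and Sirpb1b. Trem1, an amplifier of inflammatory signals in neutrophils and monocytes that was chosen after its values were seen, was at 44.7 and 1.59 CPM in WT mice (4.81, SE 0.85, adjusted p = 0.00048). Siglech, a microglial lectin that is also among the microglia markers, was at 7.72 and 117 CPM in WT mice (-3.92, SE 0.41, adjusted p = 1.7e-06). It thus lay on the side of Trem2. Neutrophil markers were higher in the infiltrating libraries, as given above, and their part in these levels was not tested.

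After injury, 7 of the 17 passed in WT microglia at 1 d, 6 higher and 1 lower (41.2%, beside 12.3% of all genes), and 4 in Fgg γ390–396A microglia, 3 higher and 1 lower (23.5%, beside 6.64%). Cd300ld rose from 1.45 CPM in sham to 24.1 CPM in WT microglia (4.03, SE 0.42, adjusted p = 1.9e-06) and to 10.2 CPM in Fgg γ390–396A microglia (2.80, SE 0.40, adjusted p = 1e-04), and was at 62.5 CPM in WT infiltrating cells. The 8 monocyte markers summed to 18 to 54.2 CPM in sham and 35.5 to 157 CPM in WT microglia at 1 d, with 2 of 8 past the threshold and higher. The 9 neutrophil markers summed to 1.91 to 628 and 123 to 773 CPM, with 0 of 9 past it, and the part of such cells in the Cd300ld level was not tested. Siglech fell from 622 CPM to 117 CPM in WT microglia (-2.41, SE 0.38, adjusted p = 0.00013) and to 265 CPM in Fgg γ390–396A microglia (-1.23, SE 0.37, adjusted p = 0.036). At 7 d, 2 of 17 in WT and 1 of 17 in Fgg γ390–396A microglia were higher than in sham (11.8% and 5.88%, beside 2.02% and 0.663% of all genes), among them Treml2, at 9.29 and 6.27 CPM against 1.92 CPM (2.27, SE 0.34, adjusted p = 0.00076 and 1.70, SE 0.34, adjusted p = 0.016).

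**Figure D5:**
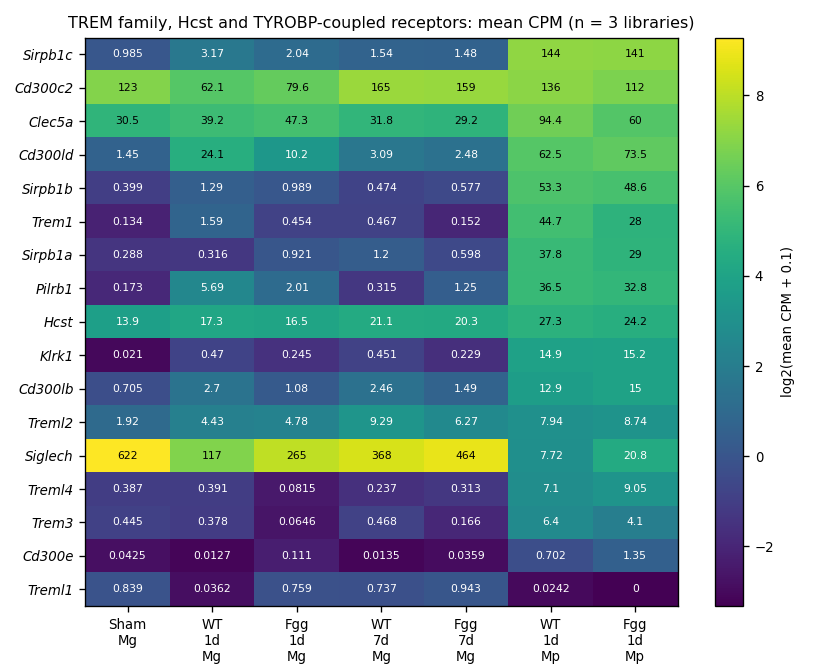
Mean level of the 17 tested genes of the TREM family, Hcst and TYROBP-coupled receptors in each group of 3 libraries, with the mean CPM written in each cell and color on the scale of log2(mean CPM + 0.1). Most rows are highest in the columns of infiltrating cells, such as Sirpb1c (144 and 141 CPM), whereas Siglech is highest in sham microglia (622 CPM).

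Of 5 ligands and sheddases of TREM2, only the ligand genes Apoe and Lgals3 passed in any comparison of injury, time or population. Against sham at 1 d, 2 of 5 passed in WT microglia (40%, beside 12.3% of all genes) and 1 in Fgg γ390–396A microglia (20%, beside 6.64%). At 7 d the counts were again 2 (40%, beside 2.02%) and 1 (20%, beside 0.663%). Apoe, an apolipoprotein that TREM2 binds, was at 446 ± 324 CPM in sham microglia (SD, n = 3), a wide spread. It was at 116 ± 92.4 CPM at 1 d in WT mice (log2 fold change -1.95, SE 0.56, adjusted p = 0.020). Its level in Fgg γ390–396A mice was 203 CPM at 1 d (-1.13, SE 0.55, adjusted p = 0.25). At 7 d Apoe had risen to 5819 CPM in WT mice (3.71 over sham, SE 0.61, adjusted p = 0.0016) and to 2966 CPM in Fgg γ390–396A mice (2.73, SE 0.58, adjusted p = 0.024). Lgals3, the gene of galectin-3, moved at another time, from 3.99 CPM in sham to 120 CPM at 1 d in WT mice (4.90, SE 0.49, adjusted p = 1.4e-06) and 45.0 CPM in Fgg γ390–396A mice (3.49, SE 0.47, adjusted p = 5.4e-05). At 7 d it was at 24.8 CPM in WT mice (2.63, SE 0.45, adjusted p = 0.0022) and at 9.19 CPM in Fgg γ390–396A mice (1.20, SE 0.44, adjusted p = 0.38). Both were higher in infiltrating cells than in microglia at 1 d, Apoe at 1587 against 116 CPM and Lgals3 at 1180 against 120 CPM in WT mice. The part of the monocyte and neutrophil markers given above in the 1 d rise of Lgals3 was not tested. Markers of border-associated macrophages varied widely among the sham libraries, as given above, and their part in the Apoe levels was not tested. The remaining 3 genes of the list, Clu and the sheddases Adam10 and Adam17, did not pass in any of the 8 comparisons of injury, time and population.

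Downstream of TYROBP, 4 of 20 signaling genes passed in WT microglia at 1 d, 2 higher and 2 lower (20%, beside 12.3% of all genes). None of the 20 passed in Fgg γ390–396A microglia at 1 d, beside 6.64% of all genes, and in either genotype 0 of 20 passed at 7 d against sham, beside 2.02% and 0.663%. Pik3cg fell from 71.9 to 34.8 CPM in WT mice (-1.05, SE 0.16, adjusted p = 0.00013) and was at 37.7 CPM in Fgg γ390–396A mice, past the bar on p and not on size (-0.93, SE 0.16, adjusted p = 0.00071). Lat2 rose from 20.3 to 42.6 CPM in WT mice (1.07, SE 0.23, adjusted p = 0.0024) and was at 38.6 CPM in Fgg γ390–396A mice (0.92, SE 0.23, adjusted p = 0.012). Syk, the kinase that TYROBP recruits, passed between populations, at 39.3 CPM in WT infiltrating cells against 12.6 CPM in WT microglia (1.64, SE 0.21, adjusted p = 1.5e-05). These WT microglia at 1 d had less Syk than sham microglia, which had 25.2 CPM, past the bar on p and not on size (-1, SE 0.21, adjusted p = 0.0016).

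Among 15 partners and regulators of the TAM receptors, 2 passed in WT microglia at 1 d (13.3%, near the 12.3% of all genes) and 0 in Fgg γ390–396A microglia at 1 d, beside 6.64%. Socs3, an inhibitor of cytokine signaling, was at 57.6 ± 7.28 CPM in WT mice at 1 d and 19.3 ± 19.3 CPM in sham (SD, n = 3). The log2 fold change was 1.58 (SE 0.49, adjusted p = 0.032). It was at 44.8 CPM in Fgg γ390–396A mice (1.22, SE 0.49, adjusted p = 0.15). Between infiltrating cells and microglia, 2 of the 15 were higher and 2 lower in WT mice (26.7%, beside 11.9% of all genes). In Fgg γ390–396A mice 4 were higher and 2 lower (40%, beside 16.7%), and the list medians were 0.53 and 0.58. Ggcx and Vkorc1, the carboxylase and the reductase of the vitamin K cycle that Gas6 and protein S depend on, were among the lower genes in WT infiltrating cells. Vkorc1 was at 20.1 against 54.8 CPM in WT mice (-1.45, SE 0.27, adjusted p = 0.00065), and Ggcx at 1.96 against 5.38 CPM (-1.46, SE 0.33, adjusted p = 0.0045).

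Other receptors and bridging proteins for phosphatidylserine, 20 genes, passed in 5 cases in WT microglia at 1 d, 3 higher and 2 lower (25%, beside 12.3% of all genes), and in 3 cases in Fgg γ390–396A microglia, all higher (15%, beside 6.64%). Havcr2, the gene of TIM-3, fell with Mertk, from 170 to 64.6 CPM in WT mice (-1.40, SE 0.18, adjusted p = 1.9e-05), and was at 151 CPM at 7 d (1.23 from 1 d, SE 0.18, adjusted p = 0.00017). Thbs1, the gene of thrombospondin-1, rose from 2.32 to 42.6 CPM at 1 d in WT mice (4.18, SE 0.58, adjusted p = 3.4e-05) and to 13.7 CPM in Fgg γ390–396A mice (2.54, SE 0.54, adjusted p = 0.0037). In infiltrating cells Thbs1 was at 1348 CPM in WT mice (4.98 from microglia, SE 0.59, adjusted p = 6.8e-06), and the part of the monocyte and neutrophil markers given above in its rise in microglia was not tested. The complement genes C1qb and C1qc, whose products bind dying cells, were lower in WT infiltrating cells (-2.09, SE 0.22, adjusted p = 1.6e-06 and -2.28, SE 0.23, adjusted p = 1.4e-06). Of 19 genes of the engulfment machinery, 3 passed at 1 d in WT microglia, 2 higher and 1 lower (15.8%, beside 12.3% of all genes). In Fgg γ390–396A microglia 0 passed, beside 6.64%. At 7 d 0 passed in either genotype against sham, where 2.02% and 0.663% of all genes did. Elmo1, a regulator of RAC during uptake, was the lower gene in WT mice at 1 d, at 73.6 against 166 CPM (-1.17, SE 0.16, adjusted p = 3.5e-05). It was at 98.4 CPM in Fgg γ390–396A mice (-0.76, SE 0.16, adjusted p = 0.0036). The higher genes in WT mice were Rac2, at 41.4 against 20.4 CPM (1.02, SE 0.2, adjusted p = 0.0011), and Abca1, at 87.7 against 43.4 CPM (1.01, SE 0.27, adjusted p = 0.013). None of the 96 tested genes of these 6 lists passed between genotypes in any of the 3 settings.

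The members' levels across the 21 libraries fell into sets, which is given as a description because all points share the 7 groups, their depth and cell populations. Pearson's r of log2 CPM was 0.918 between Trem2 and Mertk, 0.909 between Mertk and Pros1 and 0.882 between Gas6 and Pros1. Tyrobp ran against them, at -0.732 with Mertk and -0.752 with Pros1, and Axl had r between -0.244 and 0.565 with the other members. Among 11462 protein-coding genes with a mean of at least 1 CPM in at least 1 group, those most like Mertk were Cables1 (0.989), Jam2 (0.987) and Sall1 (0.987), a transcription factor of microglia and 1 of the microglia markers. Those most like Axl were H2-K1 (0.910), Apoe (0.899) and H2-Q4 (0.877), where the H2 genes are class I histocompatibility genes with similar sequences. Those most like Trem2 were Cd34 (0.981), Acss1 (0.970) and Rubcnl (0.967). The nearest genes were Rps9 (0.917) for Tyrobp, Abhd12 (0.974) for Gas6 and Tpbgl (0.977) for Pros1.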

How the data were processed

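RNA was measured in 21 libraries, 3 in each of 7 groups, and groups and replicate numbers were taken from the sample titles. The authors ran nf-core/rnaseq with salmon against GRCm38. The deposited values are expected counts per gene, scaled so that gene length is divided out within a library and not normalized between libraries. Their annotation release and strand setting are not given in the sources used here. Values were rounded to whole counts, and symbols and coordinates were taken from GENCODE M21, which matched 45143 of 45706 identifiers.

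edgeR 4.0.16 in R 4.3.3 gave the main tests (glmQLFit and glmQLFTest after TMM, Benjamini-Hochberg adjustment over all genes). A single model with 1 mean for each group held all 21 libraries and the genes whose counts summed to at least 5. The method was also run on simulated data with less variation between libraries than these data have (common biological coefficient of variation 0.643). That run therefore does not show how the method performs at the spread of these libraries. Standard errors were derived from the fold change and its F statistic. Ratios were taken as log2 of counts plus 0.5. The level of 3 counts was 0.0448 to 0.158 CPM, which covers counting error only. Libraries of the same number deviated together between genotypes in microglia at 1 d (r = 0.372, 0.151 and 0.104). In no other comparison were all 3 values over 0.1, although all 3 were positive in some, such as WT_1d_Mp against WT_1d_Mg (0.134, 0.166 and 0.023). The main tests stayed unpaired, and a replicate block over all 21 libraries was fitted as an alternative.

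Alternatives were DESeq2 1.42.0, its size factors, no filter or filterByExpr in place of the count filter, the replicate block, the compared groups only, removal of ribosomal RNA genes, another pseudocount for ratios and leaving out each library. Dropping the bar on the fold change was added after the data were seen. The genes and lists were chosen with earlier results of these data known. Named genes were the 6 members, Tyro3, Fgg, up to 2 genes in each direction with the smallest adjusted p per list and comparison, and the 3 genes most correlated with each member. One gene of the lists is not reported here.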

Additional observations from a re-analysis of the deposited data

How the results depend on the processing

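The 18 member values past the threshold were refitted under 234 alternatives, of which 214 kept the call, 20 lost it and 0 reversed. The 66 values not past it were refitted under 1002, of which 969 kept the call, 8 passed and 25 reversed, all of these small. With no bar on the fold change 2 members instead of 1 passed in WT_1d_Mg, Fgg_1d_Mg and WT_7d_Mg against sham, and 1 instead of 0 between genotypes in infiltrating cells. With the replicate block 2 instead of 1 passed in WT_1d_Mg against sham, and the block changed the call of no other member. When only the compared groups were fitted, 0 instead of 1 passed in Fgg_7d_Mg against sham. With DESeq2 or its size factors 1 instead of 2 passed in Fgg_7d_Mg against Fgg_1d_Mg, and Pros1 in WT_7d_Mg against WT_1d_Mg was 0.02 instead of -0.07. The causes were not tested.

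Leaving out 1 library at a time gave 1 to 2 members past the threshold in WT_1d_Mg and 0 to 1 in Fgg_1d_Mg against sham, 1 to 2 in WT_7d_Mg against WT_1d_Mg, 0 to 2 in Fgg_7d_Mg against Fgg_1d_Mg and 0 to 2 in Fgg_1d_Mp against WT_1d_Mp. It gave log2 fold changes against sham of -0.16 to 1.05 for Axl in WT_1d_Mg, and for Trem2 of -0.08 to 0.28 in WT_7d_Mg and -0.01 to 0.22 in Fgg_7d_Mg. Between genotypes it gave -0.06 to 0.13 for Tyrobp in microglia at 1 d, -0.17 to 0.17 for Trem2 and -0.01 to 0.13 for Pros1 at 7 d, and -0.23 to 0.68 for Trem2 and -0.10 to 0.25 for Mertk in infiltrating cells. The mean genotype effect on Axl was -0.05 to 0.15, and the difference in genotype effect between infiltrating cells and microglia was -0.73 to 0.19 for Trem2 and -0.41 to 0.29 for Axl. The difference in Gas6 to Pros1 ratio between infiltrating cells and microglia was -0.17 to 0.15.

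Counts over all genes moved by more than 1.5 times in some alternatives. DESeq2 called 820 instead of 481 genes in WT_7d_Mg and 347 instead of 158 in Fgg_7d_Mg against sham, and 104 instead of 13, 80 instead of 9 and 841 instead of 108 between genotypes in microglia at 1 d, microglia at 7 d and infiltrating cells, where the replicate block called 66. It called 233 instead of 34 for the mean genotype effect, and 33 instead of 0 and 259 instead of 11 for its differences between days and populations. Leaving out 1 library gave 65 to 641 genes between genotypes in infiltrating cells, 6 to 89 in microglia at 1 d and 74 to 179 in Fgg_7d_Mg against sham. Depth limits Tyro3 and Fgg, and 3 libraries a group limit the genotype contrasts.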

Other observations

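Markers of other cells that the gates could hold were low beside those of myeloid cells. Lymphocyte markers summed to at most 0.526 CPM in any microglia library, with Cd3g and Nkg7 at 0 in WT_7d_Mg, and reached 7.23 CPM in infiltrating cells. Dendritic cell markers summed to 0.586 to 3.05 CPM in microglia and to 6.81 to 14.5 CPM in infiltrating cells, endothelial markers to 4.01 to 22.4 CPM and neuron markers to 0.452 to 8.80 CPM over all libraries. Astrocyte markers were at 38.5 to 49.2 CPM in sham microglia and 9.99 to 20.9 CPM in microglia at 1 d. Oligodendrocyte markers were at 25.0 to 30.7 CPM in sham microglia and 45.1 to 71.1 CPM in WT_7d_Mg. Red blood cell markers ranged from 0 to 35.6 CPM.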
